A study of Homo sapiens with 6 samples.

Results

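FEBJ, an extract from the fruit of Brucea javanica, was set directly against cynaroside in LX-2 cells, to ask what the plant mixture does that the single flavone glucoside does not. The comparison used 4 of the 6 libraries of the series, FEBJ 1 and 2 and cynaroside 1 and 2, taken by their treatment labels alone. The other 2 libraries came from cells kept with DMSO, the solvent control, and gave the reference level beside each value. LX-2 is an established line of human hepatic stellate cells, and every library was labelled as wild type in genotype, as total RNA and as exposed for 24 h. No dose, culture or batch was named in the labels. Nothing in them says whether a group's 2 libraries are separate cultures or repeats of 1, so the p-values measure only the spread between these libraries, which may be technical.

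Stellate cells store vitamin A in the healthy liver. When they are activated they become contractile, deposit collagen and other matrix, cross-link it, and release inhibitors that protect it from proteases, which is how scar tissue builds up in liver fibrosis. Brucea javanica is a medicinal shrub whose fruit is known for quassinoids, bitter terpenoids that can block protein synthesis, and cynaroside is luteolin, a plant flavone, joined to glucose. The labels gave neither the composition of the extract nor its content of cynaroside.

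Most values below were read from the other strand. Many non-coding rows of the count tables, such as antisense transcripts, held far more counts than the protein-coding gene that they overlap, and the strand setting of the counting step was not given in the sources used here. Counts of a long non-coding row were therefore credited to a protein-coding gene if its exons, and those of no other such gene, lay opposite over 50 bp or more, and if the row's counts were no fewer than in the gene's own row. This opposite-strand reading gave 1829 rows for 1702 genes. Reads of the gene and reads of the antisense transcript cannot be told apart in it. The overlap can be short, as 3 genes with large differences show. These stretches of the coding strand are from GENCODE release 29 transcripts on GRCh38, a different build from the hg19 of the deposited counts, and all lie in coding exons. Capitals mark the bases that lie opposite an exon of the non-coding row, and lower case marks the rest of the stretch. They are in exon 5 of LRP1 (chr12:57144972-57145095, plus strand), exon 4 of AXL (chr19:41221973-41222056, plus strand) and exon 2 of JAG1 (chr20:10672916-10673006, minus strand).
LRP1: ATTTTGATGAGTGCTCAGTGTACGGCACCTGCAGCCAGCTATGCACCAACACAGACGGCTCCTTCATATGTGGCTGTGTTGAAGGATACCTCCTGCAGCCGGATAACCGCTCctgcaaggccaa
AXL: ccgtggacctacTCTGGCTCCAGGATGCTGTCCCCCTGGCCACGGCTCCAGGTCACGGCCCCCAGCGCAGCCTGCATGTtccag
JAG1: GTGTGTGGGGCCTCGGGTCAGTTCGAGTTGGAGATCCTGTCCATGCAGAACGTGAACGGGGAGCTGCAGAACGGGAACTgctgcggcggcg
The capitals cover 112 bases for LRP1, 67 for AXL and 79 for JAG1, which was 12.7, 23.4 and 6.18% of the exon bases of the 3 non-coding rows. For the remainder of such a row the counts come from bases outside the exons of the protein-coding gene. The share of its rows' exon bases that lie opposite a gene is given below for some genes only. It was also small for RUNDC3A (4.16%), SBNO1 (6.37%), LOXL1 (7.94%), LINC03040 (11.5%), FLNC (12.2%) and LTBP1 (13.0%), which are named without it. Others named without it were RGS7 (13.9%), COL4A2 (15.0%), SPARC (17.4%), NGFR (19.5%) and GATA6 (37.4%). A gene given without its share may be covered as little.

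Gene rows held 1599000 counts in cynaroside 1, the lowest depth, and 4709317 in cynaroside 2, the highest, with the other 4 libraries between them. These were 5.48 to 6.12% of all counts in the tables, and the opposite-strand reading held 38.1 to 44.2% of them. The log2 CPM of the 2 libraries of a group correlated across genes at 0.985 in DMSO, 0.984 after FEBJ and 0.980 after cynaroside (Pearson's r; genes are not independent replicates). The own rows of the genes in the reading held 4.90 and 4.91% as many counts as the opposite rows after FEBJ, 3.45 and 3.56% after cynaroside and 5.40 and 5.41% in DMSO. This share moved with the treatment, and its part in the results was not tested. Of 8 defining stellate cell genes, the own rows summed to 838 and 840.4 CPM in DMSO, 52.5 and 59.8 CPM after FEBJ and 105 and 141 CPM after cynaroside. COL3A1, PDGFRB and SPARC were at 0 in both FEBJ libraries, and ACTA2, COL3A1, NGFR and PDGFRB were at 0 in cynaroside 1, the library of lowest depth. The 4 markers each of hepatocytes, macrophages and endothelium summed to no more than 11.96, 11.4 and 0.798 CPM in any library, and ALB and TTR had no count in any of the 6. EPCAM and KRT19, markers of bile duct and epithelium, had none in either FEBJ library, CDH1 had 2 and 6 there, and KRT7 is described with its values below.

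FEBJ and cynaroside left the cells far apart. Of 1458 genes tested in the opposite-strand reading, 524 were higher after FEBJ than after cynaroside (35.9% of those tested) and 503 were lower (34.5%), by the quasi-likelihood test of edgeR at a Benjamini-Hochberg adjusted p of 0.05, so that 70.4% were called. More than 2-fold differences were called for 315 higher and 286 lower genes (41.2% together), and more than 4-fold differences for 120 and 96. The median log2 fold change over all 1458 genes was 0.04, and for 1219 of them (83.6%) the libraries of the 2 groups did not overlap. With the library factors of the deposited rows, the median moved by -0.24 and 428 genes were higher and 595 lower, so small differences near 0 depend on the scaling. Tested against a fold of 1.5 instead of 0 change, 366 were higher and 326 lower, and of the genes named below VIM, TPM1, NR4A1, CDK2, ZNF358, PRDX2, OS9, GAPDH and LTBP1 were no longer called. Against a background of 70.4%, a high share of called members says nothing about a gene group, so the groups below are described by the direction and size of their members. The same test called 70.6% of the genes between FEBJ and DMSO and 42.5% between cynaroside and DMSO, and a level is called above or below DMSO where it passed that test. Log2 fold changes are FEBJ minus cynaroside with their standard error unless another pair is named, and levels are CPM, counts scaled by TMM to 1000000 per library.

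**Figure D1:**
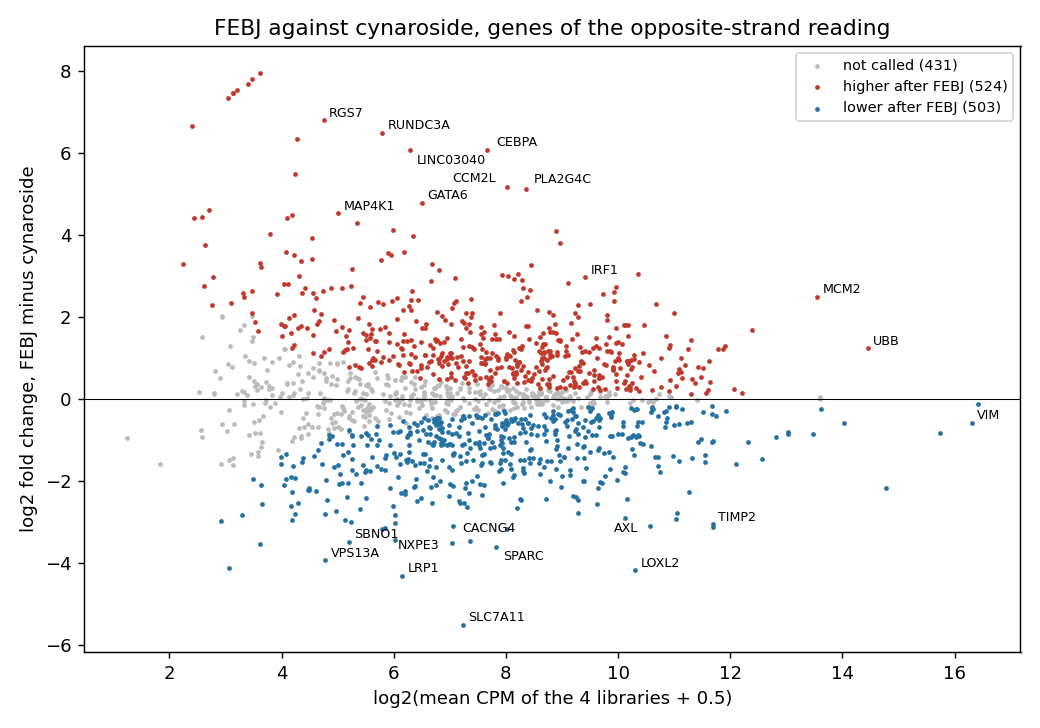
Each point is 1 of the 1458 genes tested in the opposite-strand reading, with the log2 of its mean CPM over the 4 compared libraries (plus 0.5) on the x axis and its log2 fold change, FEBJ minus cynaroside, on the y axis. The 524 genes higher after FEBJ are red, the 503 lower are blue and 431 not called are grey. SLC7A11 lies lowest and MCM2 and UBB stand out among abundant genes. The points at the upper left had 0 or few counts after cynaroside, and their height depends on the prior count of the fit.

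The own rows did not always move the same way. Among 1009 genes that could be tested in both readings, 762 were called in the opposite-strand reading, and of these the own row was called in the same direction for 138 and in the other direction for 84. Of the 93 genes of this reading examined by name, 77 had a testable own row. It was called the same way for 22, had the same sign without a call for 35, had the other sign without a call for 11, was called the other way for 8 and was at 0 for LTBP1, which had no own-row counts in the 4 compared libraries. These values come from a fit of the own rows of the genes in the reading. In the fit of all deposited rows, which tested 76 of these genes, the own rows lay higher by a median of 0.28 on the log2 scale, and 23 were called the same way and 11 the other way. There 4 genes gained a call in the direction of the opposite row, SLC7A11, SBNO1 and TUBA1B gained one in the other direction, and PXN, CUL3 and NFE2L1 lost theirs. The own-row value is given below beside the main genes, since which of the rows gives the level of the gene was not tested. Where the reading was restricted to rows with at least 50% of their exon bases opposite the gene, 194 of 532 genes were higher and 183 lower, with a median of 0.04.

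In the opposite-strand reading it was FEBJ, rather than cynaroside, that stood apart from DMSO. For each gene the 3 group means were ordered on the log2 scale. FEBJ was the group farthest from the other pair for 879 of the 1458 genes (60.3%), DMSO for 290 and cynaroside for 289. FEBJ held the middle level for 241 genes, cynaroside for 580 and DMSO for 637. The median absolute difference between group means, on the log2(CPM + 1) scale, was 0.85 for FEBJ and cynaroside, 0.84 for FEBJ and DMSO and 0.36 for cynaroside and DMSO. The 3 distances share libraries and were not tested against each other. With the scaling of the deposited rows, FEBJ was farthest for 723 genes. In the own rows FEBJ was farthest for 309 of 1012, so the pattern did not hold there.

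**Figure D2:**
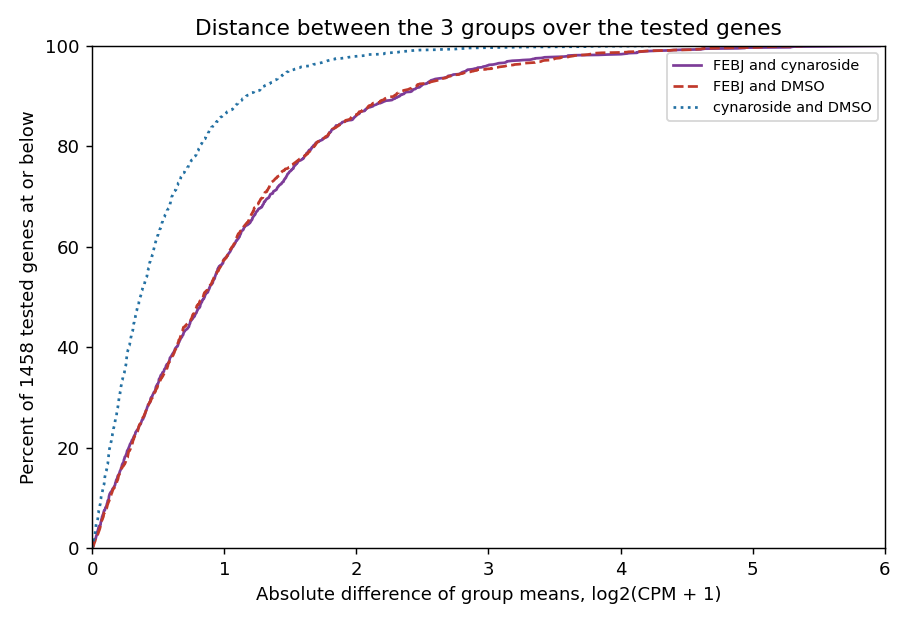
The curves give the percent of the 1458 tested genes (y axis) whose group means differ by no more than the absolute difference on the x axis, on the log2(CPM + 1) scale, for the 3 pairs of groups. The curve for cynaroside and DMSO rises fastest, with a median of 0.36, and the curves for FEBJ with cynaroside (median 0.85) and FEBJ with DMSO (0.84) run together.

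The largest differences below cynaroside were led by the cystine transporter SLC7A11, which imports the cystine that cells use to make glutathione. The FEBJ libraries held 7.61 and 5.41 CPM of SLC7A11, the cynaroside libraries 287 and 299.6 CPM and the DMSO libraries 133 and 146 CPM. The FEBJ libraries were the lowest and the cynaroside libraries the highest of the 6, and the difference was 45.7-fold (-5.51 ± 0.28). The own row of SLC7A11 had the other sign, without a call in the fit of own rows (1.16) and called higher after FEBJ in the fit of all deposited rows (1.43, adjusted p = 0.0364 by edgeR with Benjamini-Hochberg adjustment). The overlap is partial, since 14.0% of the exon bases of its opposite row lie against the gene. LRP1, an endocytic receptor that clears proteases and matrix proteins, stood at 10.5 and 4.06 CPM after FEBJ, 114 and 154 after cynaroside and 115 and 122 in DMSO (-4.32 ± 0.33). LOXL2, an enzyme of the lysyl oxidase family that ties collagen chains together, stood at 130.2 and 133 CPM after FEBJ against 2389.9 and 2402 after cynaroside and 2833 and 2668 in DMSO (-4.19 ± 0.08). For both genes the cynaroside libraries lay near DMSO and far above FEBJ in the opposite-strand reading. In the fit of all deposited rows cynaroside lay below DMSO for LRP1 (-2.49 ± 0.43) and LOXL2 (-2.65 ± 0.23). FEBJ lay below DMSO there too (-3.46 ± 0.46 for LRP1 and -2.41 ± 0.22 for LOXL2). Only 3.71% of the exon bases of LOXL2-AS1 lie opposite LOXL2, and the own row was not called (-0.04). The other 5 genes that the naming rule picked among the largest falls were SPARC, described below, VPS13A, a lipid transfer protein at contacts between organelles (-3.94 ± 0.56), NXPE3 (-3.53 ± 0.24), SBNO1 (-3.50 ± 0.43) and CACNG4, an auxiliary subunit of calcium channels and glutamate receptors (-3.47 ± 0.21). All 5 lay between 2.70 and 36.5 CPM in the FEBJ libraries and between 48.5 and 421 CPM in the cynaroside libraries.

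Among the largest differences above cynaroside were transcription factors of other lineages. CEBPA, which directs the differentiation of hepatocytes, fat cells and myeloid cells, is read from rows that lie wholly opposite it. It stood at 13.9 and 10.8 CPM in the DMSO libraries, 16.0 and 1.98 CPM after cynaroside and 436 and 356 CPM after FEBJ. Both FEBJ libraries lay far above the other 4 (6.08 ± 0.29 against cynaroside). GATA6, a factor of endoderm and heart, stood at 166 and 183 CPM after FEBJ, 5.82 and 6.44 after cynaroside and 3.96 and 4.05 in DMSO (4.78 ± 0.37). PLA2G4C, a phospholipase that releases fatty acids from membranes, stood at 619.9 and 667 CPM after FEBJ and 8.73 and 22.3 after cynaroside (5.12 ± 0.21), and DMSO lay at 16.8 and 12.2 CPM. CCM2L, a scaffold protein known from endothelium (5.16 ± 0.23), and MAP4K1, a kinase of blood cell signalling (4.52 ± 0.64), followed the same pattern, and so did LINC03040 (6.08 ± 0.46), whose name is that of a non-coding RNA although release 29 types it as coding. After cynaroside RUNDC3A and RGS7, a regulator of G protein signalling, held 1 to 3 counts in all. As ratios of scaled counts they were 98.03-fold (95% exact interval 33.2 to 478) and 148-fold (26.1 to 5871) higher after FEBJ. These intervals cover counting error only. For these 8 genes cynaroside and DMSO both lay at or under 22.3 CPM in every library, while the FEBJ libraries lay between 38.0 and 667 CPM. Of the 16 genes in the 2 sets, 9 had a testable own row, and only that of SPARC was called in the same direction. For LRP1, LOXL2 and RGS7 the own row had the same sign without a call, and for SLC7A11, VPS13A, NXPE3, SBNO1 and RUNDC3A the other sign without a call. In the fit of all deposited rows SLC7A11 and SBNO1 (2.34, adjusted p = 0.0449 by edgeR with Benjamini-Hochberg adjustment) were called in that other direction, and LOXL2 lay at 0.23 without a call.

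Genes of the activated stellate cell were mostly lower after FEBJ than after cynaroside. Of 7 tested members of the list of stellate cell activation and fibrosis markers 6 were lower and 1 was higher, with a median log2 fold change of -0.87 against 0.04 over all genes. SPARC, which binds collagen and helps fibrils to form, stood at 30.4 and 36.5 CPM after FEBJ, 413 and 421 after cynaroside and 568 and 581 in DMSO (-3.62 ± 0.17). Its own row was lower too, with 0 counts in both FEBJ libraries and 8 and 60 after cynaroside. That is at least 25.2-fold, against a floor of 3 counts over the group, and the fitted -8.43 depends on the prior count. In the fit of all deposited rows SPARC also lay below DMSO after cynaroside (-2.60 ± 0.34). VIM, the vimentin filament of mesenchymal cells, was the most abundant member. It stood at 123375 and 122330.0 CPM in the DMSO libraries, 97269 and 96950.3 CPM after cynaroside and 64876 and 64742 CPM after FEBJ. The 3 groups did not overlap and cynaroside held the middle level, so that the difference was -0.58 ± 0.01 between the treatments. The own row of VIM was lower as well (-1.29). THY1, a surface protein of fibroblasts read from a row wholly opposite it, stood at 536 and 504 CPM after FEBJ and 946 and 974 after cynaroside (-0.89 ± 0.09). LTBP1, which holds latent TGF-beta in the matrix, was lower, at -1.24 ± 0.46 (adjusted p = 0.0111, edgeR with Benjamini-Hochberg adjustment). That call ended without FEBJ replicate 1 (-0.61, adjusted p = 0.298), without cynaroside replicate 2 (-1.30, adjusted p = 0.0575) and with DESeq2 (-1.30, Benjamini-Hochberg adjusted p = 0.0525).

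ACTA2 and NGFR did not follow that pattern. ACTA2, the smooth muscle actin that marks the contractile state, stood at 474 and 584 CPM after cynaroside, 299 and 288 after FEBJ and 273 and 261 in DMSO. It was the cynaroside libraries that stood apart, and FEBJ lay -0.87 ± 0.13 below them while its own difference from DMSO was not called (0.14 ± 0.13, adjusted p = 0.351 by edgeR with Benjamini-Hochberg adjustment). ACTA2 is read from ACTA2-AS1, with 16.2% of its exon bases opposite the gene. NGFR, the nerve growth factor receptor that stellate cells carry, went the other way from the rest of the list. Levels of NGFR were 608 and 647 CPM after FEBJ, 80.1 and 58.4 CPM after cynaroside and 77.2 and 87.8 CPM in DMSO. Both FEBJ libraries were above the 4 others (3.26 ± 0.16), and its own row had the same sign without a call (1.31).

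Matrix proteins and the enzymes that shape them were mostly lower after FEBJ. Of 6 tested collagens and matrix proteins 4 were lower and 1, COL5A3, was higher, with a median of -1.86. Of 7 genes for matrix proteases, their inhibitors and cross-linking enzymes 6 were lower and 1, LOXL4, was higher, with a median of -1.19. TIMP2, an inhibitor of matrix metalloproteinases, is read from a row wholly opposite it. It stood at 5651 and 5801 CPM in the DMSO libraries, 6196 and 5551 CPM after cynaroside and 751 and 655 CPM after FEBJ. Cynaroside and DMSO overlapped, and FEBJ was 8.37-fold below cynaroside (-3.07 ± 0.05, own row -1.56 and called). In the fit of all deposited rows, however, the own row of TIMP2 lay below DMSO after cynaroside as well (-1.61 ± 0.33). COL4A2, a chain of the basement membrane collagen, showed the same order in the opposite-strand reading. It stood at 312 and 333 CPM after FEBJ, 1410.3 and 1295 after cynaroside and 1343 and 1346 in DMSO (-2.06 ± 0.08, own row -2.10 and called). The own row of COL4A2 also lay below DMSO after cynaroside in the fit of all deposited rows (-1.65 ± 0.24). LOXL1, a lysyl oxidase of elastic fibres, was lower (-1.19 ± 0.15). THBS1, which helps to activate TGF-beta, was graded. Its levels were 178 and 176 CPM in DMSO, 68.4 and 69.8 after cynaroside and 21.9 and 19.6 after FEBJ (-1.75 ± 0.29). The own row of THBS1 was called in the other direction (1.67), and with both rows summed the difference was 0.29 and not called, so the direction of THBS1 depends on the row that is read. Without the rows that have less than 50% of their exon bases opposite, all 3 proteases, inhibitors and cross-linkers that remained were lower, and 2 of 3 collagens and matrix proteins.

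**Figure D3:**
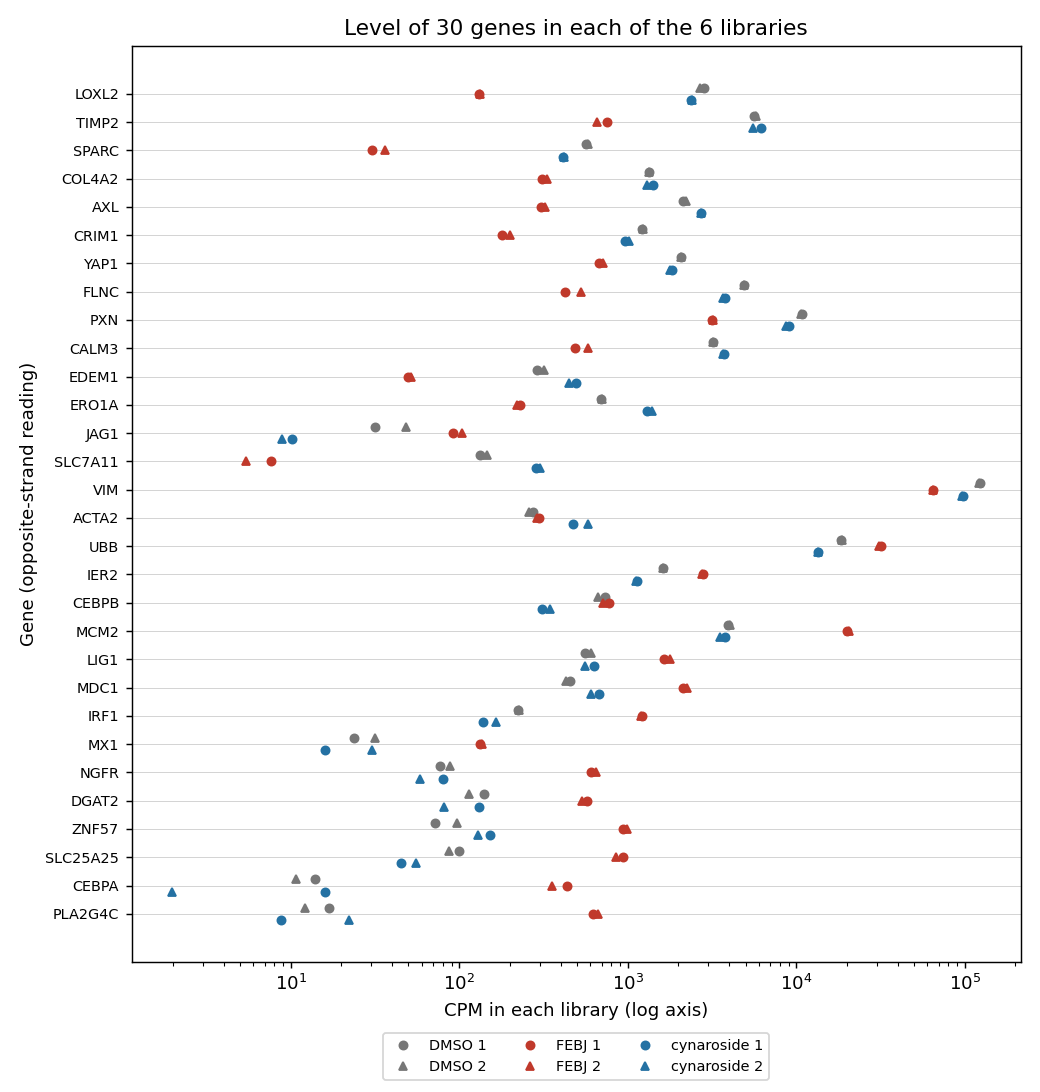
Levels of 30 genes in the opposite-strand reading, with CPM on a log axis and 1 mark per library: grey for DMSO, red for FEBJ and blue for cynaroside, circles for replicate 1 and triangles for replicate 2. For TIMP2, COL4A2 and AXL the red marks lie apart on the left while grey and blue lie close together. For ACTA2 the blue marks stand apart on the right, and for MCM2, NGFR, PLA2G4C and CEBPA the red marks stand apart on the right.

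Adhesion molecules and growth factor receptors showed the same lean. Of 15 tested members 9 were lower after FEBJ and 3 were higher, with a median of -0.92. AXL, a receptor tyrosine kinase that binds GAS6 and whose overlap is printed above, stood at 304 and 323 CPM after FEBJ, 2719 and 2737 after cynaroside and 2134 and 2207 in DMSO. Cynaroside lay slightly above DMSO (0.33 ± 0.06) and FEBJ far below both (-3.12 ± 0.07, own row -2.18 and called). The own row of AXL did not keep that order, since in the fit of all deposited rows cynaroside lay below DMSO (-2.02 ± 0.30). CD44, the receptor for hyaluronan, was lower (-0.92 ± 0.06), while its own row had the other sign without a call (0.45). EFNB2, a membrane ligand of Eph receptors (1.44 ± 0.12), and ITGA1, an integrin chain that binds collagen and is read from ITGA2-AS1 (2.37 ± 0.36), were higher, as was the growth factor receptor FGFR1. Matrix stiffness switches on the coactivators YAP and TAZ in stellate cells. The YAP and TAZ list mixes their targets with genes of the Hippo pathway, so its count gives no direction for that branch. It had 3 of 6 members lower and 0 higher (median -0.77). YAP1, the coactivator itself and wholly covered by its row, stood at 671 and 715 CPM after FEBJ, 1821 and 1770.3 after cynaroside and 2067 and 2079.9 in DMSO (-1.37 ± 0.07), but its own row was not called (-0.07). The target CRIM1, which tethers growth factors at the membrane, was lower (-2.37 ± 0.10, own row -1.75 and called). In the TGF-beta and BMP list, the coreceptor ENG (-1.53 ± 0.10) and the BMP antagonist GREM1 (-1.68 ± 0.09) were lower and the signal transducer SMAD1 was higher.

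Actin genes followed, while tubulin and microtubule genes were split. Of 12 tested genes of the actin cytoskeleton 9 were lower after FEBJ and 0 were higher, with a median of -0.78. FLNC, a filamin that cross-links actin, stood at 426 and 531 CPM after FEBJ, 3777 and 3681 after cynaroside and 4930.5 and 4902 in DMSO (-2.95 ± 0.06, own row -2.43 and called). PXN, the focal adhesion scaffold paxillin, was lower (-1.48 ± 0.03) at 3175 and 3188 against 9091 and 8649 CPM. Cynaroside lay modestly below DMSO for FLNC (-0.40 ± 0.05) and PXN (-0.28 ± 0.03) in the opposite-strand reading. Their own rows lay further below DMSO after cynaroside in the fit of all deposited rows (-1.82 ± 0.13 and -1.01 ± 0.23). TPM1, a tropomyosin, was graded, with 6193 and 6369.9 CPM in DMSO, 3119 and 2901 after cynaroside and 2045 and 2004 after FEBJ (-0.57 ± 0.05). Cynaroside itself lay below DMSO for TPM1 (-1.07 ± 0.04), and FEBJ lay below that level. CALM3, one of the calmodulin genes that carry calcium signals to myosin light chain kinase, is wholly covered by its row. The FEBJ libraries held 489.6 and 583 CPM of CALM3, the cynaroside libraries 3739 and 3697 CPM and the DMSO libraries 3189.6 and 3194 CPM. FEBJ was 6.88-fold below cynaroside (-2.78 ± 0.06), although the own row of CALM3 did not differ measurably (0.04). Of 10 tubulin and microtubule genes 4 were higher and 4 lower. The alpha tubulins TUBA1B (-0.83 ± 0.02) and TUBA1C (-0.95 ± 0.03) were lower, and the kinesins KIF13B (1.81 ± 0.13) and KIF22 (1.27 ± 0.10) higher. TUBA1B and TUBA1C are close copies between which reads can be split, and the own row of TUBA1B had the other sign without a call (0.80), which in the fit of all deposited rows was called (1.02, adjusted p = 0.00607 by edgeR with Benjamini-Hochberg adjustment).

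Genes for protein folding in the endoplasmic reticulum were mostly lower after FEBJ than after cynaroside in the opposite-strand reading. Of 10 tested members 7 were lower and 2 were higher, with a median of -1.28. That lean was absent from the deposited rows, where 6 of 36 members were higher and 5 lower. EDEM1, which sends misfolded glycoproteins to degradation, stood at 288 and 317 CPM in DMSO, 490.5 and 446 after cynaroside and 49.4 and 52.1 after FEBJ (-3.19 ± 0.17). ERO1A, the oxidase that drives disulfide bonds, is wholly covered by its row. It stood at 693 and 708 CPM in the DMSO libraries, 1298 and 1386 CPM after cynaroside and 231 and 221 CPM after FEBJ. For both genes cynaroside was above DMSO (0.62 ± 0.14 for EDEM1 and 0.94 ± 0.09 for ERO1A) and FEBJ below it (-2.57 ± 0.17 and -1.64 ± 0.10), and the 3 groups did not overlap. The own rows of EDEM1 and ERO1A had the same sign without a call (-0.57 and -1.05). OS9, a lectin of the same degradation route, was slightly higher after FEBJ (0.32 ± 0.05), a call that ended with the scaling of the deposited rows (0.09, adjusted p = 0.274). SIL1, a partner of the chaperone BiP, was higher by 1.16 ± 0.13, but only 6.26% of the exon bases of its row lie opposite it and its own row was called lower (-3.12).

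Lipid genes split by branch. Of 4 tested cholesterol genes 3 were lower after FEBJ and 0 higher (median -0.67), and of 8 genes of fatty acid synthesis, storage and oxidation 5 were lower and 3 higher (median -0.58). ACLY, which makes cytosolic acetyl-CoA from citrate and is wholly covered by its row, was lower (-0.95 ± 0.07). LPIN2, a phosphatase on the path to triglycerides, was lower (-1.37 ± 0.11), while its own row was called higher (2.41). DGAT2, which makes triglycerides for lipid droplets, moved the other way. Levels of DGAT2 were 569 and 539 CPM after FEBJ, 131 and 81.7 CPM after cynaroside and 139.6 and 115 CPM in DMSO. Cynaroside and DMSO overlapped and FEBJ was 5.59-fold above cynaroside (2.48 ± 0.16, own row 3.26 and called).

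In amino acid supply and redox defence the treatments differed gene by gene. Of 11 tested genes of the ATF4 response and amino acid supply 4 were lower after FEBJ and 3 were higher, with a median of -0.20. Besides SLC7A11, PYCR1, the last enzyme of proline synthesis and so a source of the proline in collagen, was lower (-0.90 ± 0.09, own row -4.21 and called). CEBPB, a transcription factor of stress and acute phase responses, stood at 772 and 716 CPM after FEBJ, 729.8 and 664 in DMSO and 309 and 348 after cynaroside. Here FEBJ overlapped DMSO and cynaroside was low, and the difference was 1.16 ± 0.10. Of 5 genes in the NRF2, glutathione and iron list 3 were higher and 2 lower. NQO1, a quinone reductase and classical NRF2 target wholly covered by its row, stood at 119.8 and 105 CPM after FEBJ, 373 and 360.5 after cynaroside and 395 and 525 in DMSO (-1.71 ± 0.15, own row -1.09 and not called). NFE2L1, a relative of NRF2 that controls proteasome genes, was lower (-1.09 ± 0.06), and PRDX2, a peroxidase, was higher by 0.43 ± 0.07. GSTM3, a glutathione transferase, had 0 counts in both cynaroside libraries and was at least 14.3-fold higher after FEBJ, against a floor of 3 counts over the group. Of 12 ubiquitin and proteasome genes 5 were higher and 5 lower. The polyubiquitin gene UBB, whose reads can be shared with other ubiquitin genes, stood at 31669.7 and 31031 CPM after FEBJ, 18440.5 and 18676 in DMSO and 13398 and 13408 after cynaroside, on either side of DMSO (1.23 ± 0.02, own row 1.14 and called). CUL3, the scaffold of the ligase that degrades NRF2, was lower (-0.78 ± 0.09).

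Replication genes were the group most often higher after FEBJ among those of cell division. Of 8 tested members of the G1/S and DNA replication list 6 were higher and 1 was lower, with a median of 0.89. MCM2, a subunit of the helicase that opens replication origins, was the most abundant. It stood at 3961 and 4029 CPM in the DMSO libraries, 3757 and 3517 CPM after cynaroside and 20096 and 20462 CPM after FEBJ. FEBJ was 5.59-fold above cynaroside (2.48 ± 0.03, own row 1.11 and called), and cynaroside lay slightly below DMSO. LIG1, the ligase that joins Okazaki fragments, stood at 1634 and 1775 CPM after FEBJ, 635 and 559 after cynaroside and 555 and 605 in DMSO (1.53 ± 0.08). CDK2, the kinase of entry into S phase, was the lower member (-0.31 ± 0.09). Genes of mitosis were mixed, with 3 of 4 lower and 1 higher. NUMA1, which organises spindle poles, was lower (-1.38 ± 0.05, own row -1.24 and called). PLK1, a mitotic kinase, stood at 1110.5 and 1115 CPM after FEBJ and 1082 and 1049 in DMSO, close together, and at 671 and 606 after cynaroside (0.82 ± 0.08).

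DNA damage and death genes moved in both directions. In the list of p53 targets and DNA damage 3 of 5 genes were higher after FEBJ and 0 were lower. MDC1, which gathers repair proteins at broken DNA, stood at 2119 and 2254 CPM after FEBJ, 671 and 605 after cynaroside and 455 and 429 in DMSO (1.79 ± 0.07). XPC, a damage sensor of nucleotide excision repair, was higher by 1.24 ± 0.06 (own row 1.16, called). Cynaroside also lay above DMSO for both genes, by 0.52 ± 0.08 for MDC1 and 0.43 ± 0.07 for XPC. MDM2, the ubiquitin ligase of p53, and SESN1 were not called. Of 7 apoptosis regulators 4 were lower and 2 were higher. The survival factor BCL2L1 was graded, with 2139 and 1966 CPM in DMSO, 1314 and 1444 after cynaroside and 774 and 748 after FEBJ (-0.87 ± 0.07, own row -0.05 and not called). BMF, which favours cell death, stood at 43.7 and 56.1 CPM after FEBJ against 10.2 and 6.44 after cynaroside (2.70 ± 0.54), and BOK, another member that favours death, was lower (-1.05 ± 0.21).

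Early response and interferon genes were mostly higher after FEBJ in the opposite-strand reading. The same lists were not mostly higher in the deposited rows, where most of the members tested were other genes. Of 7 immediate early genes and MAPK feedback genes 5 were higher and 1 was lower, with a median of 1.30, while in the deposited rows 2 of 28 were higher and 4 lower. IER2, an early response factor wholly covered by its row, stood at 2792 and 2754 CPM after FEBJ, 1616 and 1617 in DMSO and 1134 and 1119 after cynaroside (1.30 ± 0.06), and IER5L lay in the same order (2.29 ± 0.11). FEBJ was above and cynaroside below DMSO for both. NR4A1, a nuclear receptor that is induced early, was the lower member (-0.60 ± 0.14). It stood at 116 and 125 CPM in the DMSO libraries, 422 and 388 CPM after cynaroside and 241 and 287 CPM after FEBJ, so that both treatments lay above DMSO and cynaroside the higher. Of 6 interferon-stimulated genes 5 were higher after FEBJ and 0 lower, with a median of 2.13. In the deposited rows 6 of 30 were higher and 3, IFIT1, IFIT3 and IFITM1, were lower. IRF1, a transcription factor that drives antiviral and antigen presentation genes, stood at 1223 and 1195 CPM after FEBJ, 138 and 164 after cynaroside and 223 and 227 in DMSO (2.96 ± 0.12). 17.6% of the exon bases of IRF1-AS1 lie opposite IRF1, and the own row was not called (0.05). MX1, an antiviral GTPase, was 5.30-fold above cynaroside (2.41 ± 0.30), and cynaroside and DMSO overlapped. In the NF-kB list IKBKE, a kinase upstream of interferon genes, was higher by 1.95 ± 0.30. CHUK, a catalytic subunit of the kinase that releases NF-kB, held under 1 CPM in either FEBJ library against 13.1 and 16.8 CPM after cynaroside, as a ratio of scaled counts 20.1-fold lower (95% exact interval 5.24 to 171).

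**Figure D4:**
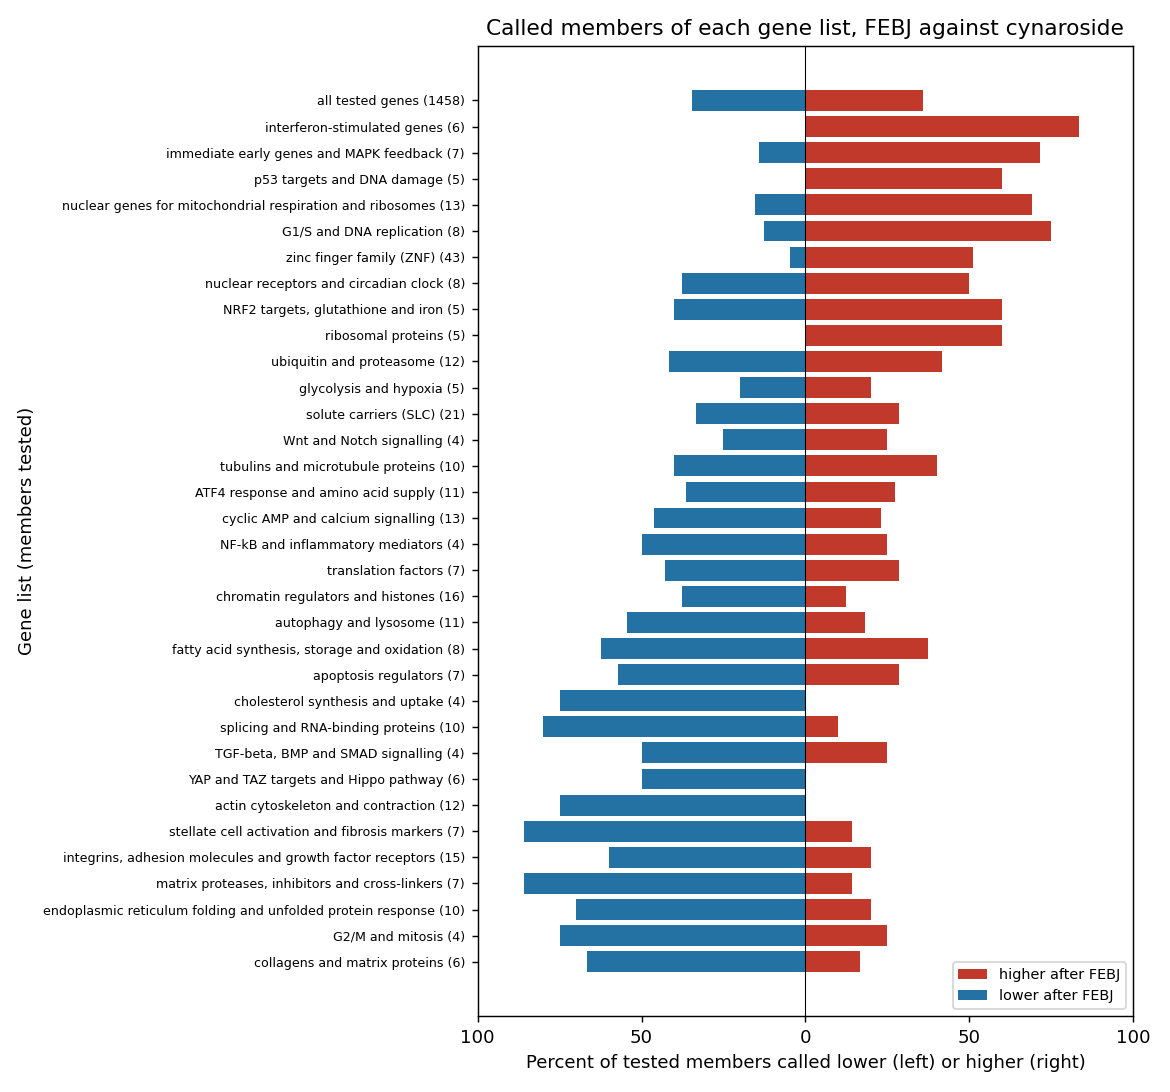
For each gene list with at least 4 tested members (number in parentheses), except 1 that is not reported here, the bars give the percent of tested members called lower after FEBJ than after cynaroside (blue, to the left) and called higher (red, to the right). All tested genes are in the top bar, at 34.5 and 35.9%. The actin list has 9 of 12 members to the left, while the interferon list has 5 of 6 and the mitochondrial list 9 of 13 to the right.

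Nuclear genes for mitochondria and zinc finger genes leaned upward. Of 13 nuclear genes for mitochondrial respiration and ribosomes 9 were higher after FEBJ and 2 lower, with a median of 0.93. MRPS11, a mitochondrial ribosomal protein, was higher by 1.33 ± 0.09, at 1151 and 1373 against 504 and 501 CPM. NDUFS7, a subunit of respiratory complex I, was higher by 0.98 ± 0.06, but its own row was called lower (-0.99). The larger complex I subunit NDUFS1 was lower (-0.75 ± 0.12), and its own row was called higher (7.01). Of 43 zinc finger ZNF genes, mostly DNA-binding repressors, 22 were higher and 2 lower, with a median of 0.81. ZNF57 stood at 943 and 984 CPM after FEBJ, 151 and 129.7 after cynaroside and 72.3 and 96.5 in DMSO (2.81 ± 0.13, own row -0.01 and not called). ZNF205 was higher by 2.12 ± 0.13, with 7.76% of its row opposite it and an own row that was called lower (-1.68), and ZNF358 was lower (-0.49 ± 0.10). Solute carriers were split, with 6 of 21 higher and 7 lower. Within them the mitochondrial carrier SLC25A25, which exchanges ATP and magnesium for phosphate, was higher (4.09 ± 0.16, own row 0.19 and not called). The amino acid transporter SLC38A10 was lower (-1.45 ± 0.09, own row -1.96 and called).

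RNA-binding and regulatory genes gave a few further contrasts. Of 10 splicing and RNA-binding proteins 8 were lower after FEBJ and 1 was higher, while the deposited rows leaned the other way, with 28 of 84 higher and 16 lower. PRPF8, the core protein of the spliceosome, was lower (-1.12 ± 0.14), while its own row was called higher (1.12). Of 7 translation factors 3 were lower and 2 higher. EEF2K, the kinase that slows elongation by acting on eEF2, stood at 6.66 and 14.2 CPM after FEBJ, 52.5 and 35.8 in DMSO and 100.4 and 98.5 after cynaroside (-3.18 ± 0.37), so that cynaroside and FEBJ lay on either side of DMSO. Of 16 chromatin regulators and histones 6 were lower and 2 higher, with the linker histone H1-10 at 8279 and 8099 CPM after FEBJ and 2818 and 2365 after cynaroside (1.67 ± 0.04, own row 1.51 and called). With the scaling of the deposited rows 11 of the 16 were lower and 1 was higher. Of 11 autophagy and lysosome genes 6 were lower and 2 higher, among the latter ATG101, a subunit of the kinase complex that starts autophagy (1.32 ± 0.08). In the joint list of cyclic AMP and calcium signalling, 3 of 13 genes were higher and 6 lower. The calcium release channel ITPR1 (3.57 ± 0.35) and the factor NFATC3 (1.71 ± 0.08) were higher, and CALM3 was among the lower genes. JAG1, the Notch ligand whose overlap is printed above, stood at 92.2 and 104 CPM after FEBJ, 31.7 and 48.6 in DMSO and 10.2 and 8.91 after cynaroside (3.39 ± 0.38). FEBJ lay above DMSO for JAG1 (1.27 ± 0.31) and cynaroside below it (-2.12 ± 0.41). GAPDH, the glycolytic enzyme often used as a reference, differed least among the abundant genes named, at 83600.3 and 83524 CPM after FEBJ and 91136 and 91596 after cynaroside (-0.13 ± 0.01). Of 5 ribosomal protein genes 3 were higher and 0 lower, but 0 were higher and 1 was lower with the scaling of the deposited rows, so no direction is given for them.

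Some markers of epithelium and hepatocytes differed between the treatments. KRT7, SERPINA1 and CLDN4 were chosen from the marker lists after their values were seen. KRT7, a keratin of bile duct epithelium, stood at 999 and 840.4 CPM after FEBJ, 162 and 149.9 in DMSO and 90.2 and 54.5 after cynaroside (3.80 ± 0.15), read from KRT7-AS with 16.7% of its exon bases opposite. Its own row had the same sign without a call (2.00). SERPINA1, the antitrypsin that hepatocytes secrete, held 27 and 37 counts after FEBJ and 0 in both cynaroside libraries in its own row, at least 19.2-fold higher. The 4 hepatocyte markers summed to 10.5 and 11.96 CPM after FEBJ, 0 after cynaroside and 0.269 to 0.788 CPM in DMSO, and of the others only APOA1 held counts, 3 of them in FEBJ 1. In the deposited rows CSF1R, a macrophage receptor, held 15 and 20 counts after FEBJ and 6 and 11 after cynaroside and was not called (adjusted p = 0.491). STAB1, which marks sinusoidal endothelium, was not called either (adjusted p = 0.734), nor was KRT18, a keratin of simple epithelia (adjusted p = 0.448), all by edgeR with Benjamini-Hochberg adjustment. Scaled by the factors from the opposite-strand genes, KRT18 was higher (0.39, adjusted p = 0.0396 by the same edgeR test). CLDN4, a claudin of epithelial tight junctions, went the other way in the deposited rows, with 18 and 66 counts after FEBJ and 81 and 277 after cynaroside (-2.24 ± 0.33), and CLDN7, ELF3 and SOX9 of the same list were not called. The KRT8 row, which lies opposite KRT18, was higher after FEBJ by 1.30 ± 0.07, with the cynaroside libraries at 573 and 577 CPM and FEBJ near DMSO.

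Several fibrosis genes have no opposite row and could be read only from their own rows. In the deposited rows 2579 of 12012 were higher after FEBJ (21.5%) and 2455 lower (20.4%), 41.9% called in all, by the same test. Scaled by the library factors from the opposite-strand genes instead, 3241 were higher and 2019 lower. Among the 3892 protein-coding rows that no annotated exon opposes, 27.5% were called, 631 higher (16.2%) and 438 lower (11.3%), with a median of 0.32. COL1A1, which encodes most of type I collagen, held 6 and 10 counts after FEBJ, 58 and 78 after cynaroside and 783 and 1276 in DMSO. Both treatments lay far below DMSO, where the test called 50.8% of rows for FEBJ and 45.4% for cynaroside. FEBJ lay below cynaroside in turn (-3.31 ± 0.36). FN1, fibronectin, held 73 and 83 counts after FEBJ, 72 and 174 after cynaroside and 629 and 964 in DMSO, and was lower, at -0.82 ± 0.19 (adjusted p = 0.000869, edgeR with Benjamini-Hochberg adjustment). Its level was 29.05 and 23.5 CPM after FEBJ and 49.4 and 43.9 CPM after cynaroside. COL3A1 and PDGFRB had 0 counts after FEBJ and counts in cynaroside 2 alone, 9 and 2 of them, so little can be read from them. COL3A1 was called (adjusted p = 0.0355), but not without any 1 of the FEBJ or DMSO libraries or with the replicate block (adjusted p of 0.0537 to 0.130 by edgeR with Benjamini-Hochberg adjustment), and both genes had no difference at all without cynaroside replicate 2. PDGFRB was not called (adjusted p = 0.28), and TIMP1 (adjusted p = 0.481) and CCN2 (adjusted p = 0.752), by the same edgeR test with Benjamini-Hochberg adjustment, were not either. The TGFB1 row, which lies opposite HNRNPUL1 and may hold its reads, was lower (-1.16 ± 0.07). FN1 and COL3A1 were not called against a fold of 1.5 (adjusted p = 0.104 and 0.0514 by edgeR with Benjamini-Hochberg adjustment).

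Among the protein-coding rows that no annotated exon opposes, some gene lists leaned as they did in the opposite-strand reading and others did not. Of 19 collagens and matrix proteins 11 were lower after FEBJ and 3 higher (median -1.61), and of 34 actin genes 11 were lower and 2 higher (median -0.56). The stellate cell list had 4 of 12 members lower and 1 higher, and the YAP and TAZ list 3 of 16 lower and 0 higher. On the other side, 14 of 29 G1/S and replication genes were higher and 2 lower (median 2.07), as were 7 and 1 of 19 p53 and damage genes (median 0.49). Of 86 zinc finger genes 18 were higher and 7 lower (median 0.47). That was not far from the 16.2 and 11.3% and the median of 0.32 over all these rows, so their lean was weak here. The lean was absent or turned for several groups that were mostly lower above. Of 17 proteases, inhibitors and cross-linkers 3 were higher and 3 lower (median 0.55), of 25 adhesion molecules and receptors 6 were higher and 3 lower (median -0.11), and of 41 splicing and RNA-binding genes 13 were higher and 4 lower (median 0.93). For protein folding in the endoplasmic reticulum 2 of 13 were higher and 1 was lower (median 0.26), for autophagy and lysosomes 5 of 26 and 1, for chromatin 9 of 59 and 7, for cholesterol 1 of 7 and 0, and for apoptosis regulators 1 of 9 and 0. The ATF4 and amino acid list had 6 of 20 members higher and 0 lower (median 0.97). Of the groups that were mostly higher above, interferon-stimulated genes had 5 of 19 members higher and 3 lower (median 0.28), immediate early genes 2 of 21 higher and 3 lower (median 0.19), and nuclear genes for mitochondria 8 of 59 higher and 5 lower (median 0.59).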

How the data were processed

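RNA of 6 LX-2 libraries was sequenced, 2 after FEBJ, 2 after cynaroside and 2 after DMSO. The deposited files hold raw counts per gene row, which the authors made with CASAVA 1.7, HISAT2 and HTSeq 0.12.4 on hg19 and used with DESeq2 1.38.0, per the submitters' processing notes. The strand setting and annotation release are not given in the sources used here. The 5 summary rows were left out, which left 62754 rows, of which 62700 had a symbol.

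Opposite exons came from GENCODE release 29 (GRCh38), which held 58261 of the rows. Pseudogenes and small RNAs were not assigned, and the rows of 1 gene were summed. Counts were filtered with filterByExpr, scaled by TMM and fitted with edgeR 4.0.16 in R 4.3.3 (quasi-likelihood, 3 group means, all 6 libraries, 3 residual degrees of freedom). P-values were adjusted by the Benjamini-Hochberg method over all genes of a reading. The code was tested on simulated counts. Members of the comparison, the 40 gene lists, the panel and the opposite-strand reading were chosen with earlier results of these data known, so no list was tested as a set.

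Named genes were the 8 largest called differences each way with a mean of at least 20 CPM and libraries that did not overlap, a panel of 20 fibrosis and pathway genes, up to 2 higher and 2 lower called members with the smallest p from lists with at least 4 tested members, and the most abundant marker of other cell types. Some of these genes and 1 gene list are not reported here. As alternatives, scaling was by RLE, by the upper quartile or by the factors of the other reading, the filter was dropped or set to 1 CPM in 2 libraries, and the fits were repeated with DESeq2 1.42.0, with only the 4 compared libraries, with a replicate block, a threshold fold of 1.5, a prior count of 2, with each library left out, an overlap of 200 bp, every non-coding row, both rows summed or the own row. The restriction to rows with at least 50% of their exon bases opposite was chosen after seeing the data.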

Additional observations from a re-analysis of the deposited data

How the results depend on the processing

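The opposite-strand counts of 524 higher and 503 lower genes ranged from 469 to 523 and from 461 to 506 when each library was left out, and the 879 genes with FEBJ farthest from 852 to 900. In the deposited rows 2579 higher and 2455 lower ranged from 1917 to 2441 and from 1993 to 2642. A threshold fold of 1.5 left 366 higher and 326 lower genes and ended the calls of 9 named genes of the opposite-strand reading, with adjusted p from 0.0516 for LTBP1 through 0.363 for NR4A1, 0.450 for VIM, 0.571 for TPM1 and 0.805 for ZNF358 to 1 for CDK2, PRDX2, OS9 and GAPDH, and in the deposited rows those of FN1 and COL3A1. A refit on rows with at least 50% of their exon bases opposite alone gave 200 higher and 191 lower of 550 genes, with FEBJ farthest for 330, and the own deposited rows 136 higher and 140 lower of 1012, with FEBJ farthest for 309. Fewer genes entered both of these. Deviations from the group means in the opposite-strand reading correlated at 0.0055 between same-numbered FEBJ and cynaroside libraries. They correlated at 0.011 for DMSO and FEBJ and at -0.13 for DMSO and cynaroside. With 2 libraries a group, such values cannot show whether the replicate numbers pair the libraries. The replicate block gave 517 and 501 genes in the opposite-strand reading, and 2422 and 2379 deposited rows.

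The own row turned the sign for 19 of 77 named genes, to 1.16 for SLC7A11, 0.94 for VPS13A, 3.26 for NXPE3, 2.05 for SBNO1, -0.56 for RUNDC3A, 1.67 for THBS1, 0.040 for CALM3, 0.45 for CD44, 0.11 for GREM1, -3.12 for SIL1, 2.41 for LPIN2, -0.99 for NDUFS7, 7.01 for NDUFS1, -0.012 for ZNF57, -1.68 for ZNF205, 0.80 for TUBA1B, 1.12 for PRPF8, -0.46 for RARA and 0.84 for NR2F1, and the cause was not tested. With both rows summed THBS1 was at 0.29. No other alternative turned a named gene of the opposite-strand reading. In the deposited rows STAB1 was at 0.011 with upper-quartile scaling and 0.17 with scaling taken from the opposite-strand genes. Leaving out libraries moved KRT18 from -0.059 to 0.37, COL3A1 from -6.00 to 0 and PDGFRB from -3.90 to 0. The shallow cynaroside 1 library and the low counts of the own rows limit what can be detected there.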

Other observations

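Of 8 nuclear receptor and circadian clock genes 4 were higher after FEBJ and 3 were lower, with a median log2 fold change of 0.51. PER2, a repressor of the clock, stood at 183 and 166 CPM after FEBJ, 49.5 and 35.2 CPM after cynaroside and 18.8 and 28.4 CPM in DMSO (2.11 ± 0.26). RARA, a receptor for the retinoic acid that stellate cells make from vitamin A, was higher by 1.04 ± 0.15, and its own row had the other sign without a call. NR2F1, an orphan receptor, was lower (-1.58 ± 0.23), with 2.05% of the exon bases of its row opposite it, while its own row was called higher. With both rows summed NR2F1 was at -0.36 and no longer called (adjusted p = 0.0579 by edgeR with Benjamini-Hochberg adjustment).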
